A study of Mus musculus with 29 samples.

Results

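The cells described here are the 95 brain cells to which the authors gave the cell type code Epi, their code for epithelial cells. They were chosen by that deposited code alone and make up 0.172% of the 55268 annotated brain cells in 18 libraries. The whole series holds 106977 cells in 29 libraries, and none of the cells in the 11 blood libraries has the code. The finer level of the authors' annotation does not divide the class. Transcripts were counted by Drop-seq, in which a barcoded bead captures the RNA of 1 cell in a droplet.

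All mice were of the strain C57BL/6J. For stroke, the middle cerebral artery was occluded for a limited time, and controls underwent sham surgery. The young groups consisted of males aged 8 to 10 weeks and comprised 4 libraries each of sham (day 2), stroke (day 2) and stroke (day 14). The aged groups, 17 to 20 months old, comprised a male and a female sham library (day 2), 1 male and 2 female stroke libraries (day 2) and a single female stroke library (day 14). Sham controls exist for day 2 only. Every brain library came from 4 to 5 pooled hemispheres, digested with papain in the presence of transcription and receptor blockers, and p-values below measure the spread between such pools. The sort was set for leukocytes, microglia and Ly6c-high endothelial cells without CD45, so the cells with the code Epi belong to none of the populations named in the sort.

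Brain holds a pair of ciliated linings of the ventricles. The choroid plexus epithelium secretes cerebrospinal fluid and makes large amounts of transthyretin, the carrier of thyroid hormone and retinol encoded by Ttr. The ependyma lines the ventricle wall and moves the fluid with motile cilia. Astrocytes are glia that clear glutamate through Slc1a2 and Slc1a3 and are coupled through the gap junction protein Gja1. Epithelia of other organs are known by Epcam, cadherin 1 and keratins.

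Promoters of 5 genes of the choroid plexus and ependymal lists are shown first, because both linings are ciliated and their lists are compared below. They are RefSeq windows of build GRCm38.p6, the 250 bases before the annotated start, 5′ to 3′ on the gene's strand. Capitals mark GTTGCC or its reverse complement, the half-site of RFX factors that act at ciliary genes. Kl encodes klotho, Kcnj13 a potassium channel and Calml4 a calmodulin-like protein; all belong to the choroid plexus list. Dynlrb2 encodes a dynein light chain, and 1110017D15Rik is also on the ependymal list. The latter has 2 starts, of which the one with most matches of GTTGCC is shown. The 5 examples do not stand for their lists, whose shares follow the sequences.
Kl, chr5:150952357-150952606, plus strand: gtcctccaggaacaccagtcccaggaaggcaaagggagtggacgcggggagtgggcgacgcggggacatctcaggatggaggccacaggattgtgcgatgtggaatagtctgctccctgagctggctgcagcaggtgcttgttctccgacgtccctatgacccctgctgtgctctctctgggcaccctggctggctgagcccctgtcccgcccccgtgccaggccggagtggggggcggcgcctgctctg
Kcnj13, chr1:87394730-87394979, minus strand: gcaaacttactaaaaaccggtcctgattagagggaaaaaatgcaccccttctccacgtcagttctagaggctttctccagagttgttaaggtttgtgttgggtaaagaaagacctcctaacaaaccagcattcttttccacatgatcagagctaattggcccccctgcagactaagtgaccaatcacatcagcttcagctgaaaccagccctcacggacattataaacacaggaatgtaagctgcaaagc
Calml4, chr9:62857854-62858103, plus strand: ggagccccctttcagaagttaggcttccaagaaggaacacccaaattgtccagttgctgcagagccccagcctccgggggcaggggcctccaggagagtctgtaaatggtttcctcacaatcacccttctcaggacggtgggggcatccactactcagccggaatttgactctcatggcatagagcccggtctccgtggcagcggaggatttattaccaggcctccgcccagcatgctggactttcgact
Dynlrb2, chr8:116504765-116505014, plus strand: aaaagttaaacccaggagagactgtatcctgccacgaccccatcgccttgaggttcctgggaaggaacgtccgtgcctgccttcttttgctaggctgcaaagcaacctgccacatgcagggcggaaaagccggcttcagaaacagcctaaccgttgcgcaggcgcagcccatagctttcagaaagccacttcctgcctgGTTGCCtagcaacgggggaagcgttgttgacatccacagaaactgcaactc
1110017D15Rik, chr4:41507765-41508014, minus strand: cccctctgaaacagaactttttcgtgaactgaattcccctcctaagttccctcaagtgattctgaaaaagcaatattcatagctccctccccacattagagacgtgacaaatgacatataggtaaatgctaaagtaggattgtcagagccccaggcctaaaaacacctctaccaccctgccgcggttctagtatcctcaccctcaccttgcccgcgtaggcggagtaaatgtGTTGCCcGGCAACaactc
A promoter was found for 18 of 24 choroid plexus genes, 20 of 24 ependymal genes and 19 of 24 astrocyte genes. On either strand, GTTGCC lay in the 250 upstream bases of 10 of the 20 ependymal genes (50%), 4 of the 18 choroid plexus genes (22.2%) and 2 of the 19 astrocyte genes (10.5%), against 11.8% of all 27025 genes in the table. The letters TAATCC, bound by OTX2 and related factors, lay upstream of 1 of the 18 choroid plexus genes (5.56%), which was Otx2 itself, against 7.21% of all genes. Genes with several starts counted once if any window held the letters, and both motifs were searched on both strands. These are matches of letters and no binding was measured.

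The 18 brain libraries held 1143 to 5121 cells each, with 819438 to 5855047 summed counts and a median of 321 to 1363 counts per cell. Cells with the code Epi had a median of 365 counts, against 468 in cells with the code EC, 383 in MC and 657 in OD. Their median share of mitochondrial counts was 2.61%, against 4.75%, 6.44% and 3.69%. A single library stood apart: replicate 1 of young sham held 23 of the 95 cells and 49.7% of the 72896 counts of the class, so the lists of the 3 cell types below and the genes that move most with it are also given without it. Of the 95 cells, 3 had a barcode also seen in another brain library, and none of these was called Epi in both.

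Epi cells were unevenly spread over the libraries. Of the 18 libraries, 15 held at least 1 and 3 held at least 10, and these 3 together held 50 of the 95 cells (52.6%). In young sham, the share was 0.664% (23 cells), 0.297% (14), 0.0328% (1) and 0.158% (6) in replicates 1 to 4. In young stroke at day 2 it was 0.0282% (1 cell), 0.150% (5), 0 (no cell) and 0.0223% (1). The empty library held 3457 cells, where 3 cells of that total would be 0.0868% and the exact 95% binomial upper limit is 0.107%, counting error only. The highest stroke library lay above the lowest sham library and below the other three.

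At day 14 after stroke in young mice, the 4 libraries were close together, at 0.201% (6 cells), 0.151% (4), 0.188% (5) and 0.176% (9). In aged sham mice, the male library had no Epi cell among 1143 and the female library had 0.0978% (3 cells). In aged mice 2 days after stroke, the male library had none among 1147, while the female libraries had 0.513% (13 cells) and 0.204% (3). The aged female library at day 14 had 0.0379% (1 cell). Both libraries of aged males were thus at 0, where 3 cells of the total would be 0.262% in each and the exact 95% binomial upper limits are 0.322% in sham and 0.321% in stroke, counting error only.

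**Figure D1:**
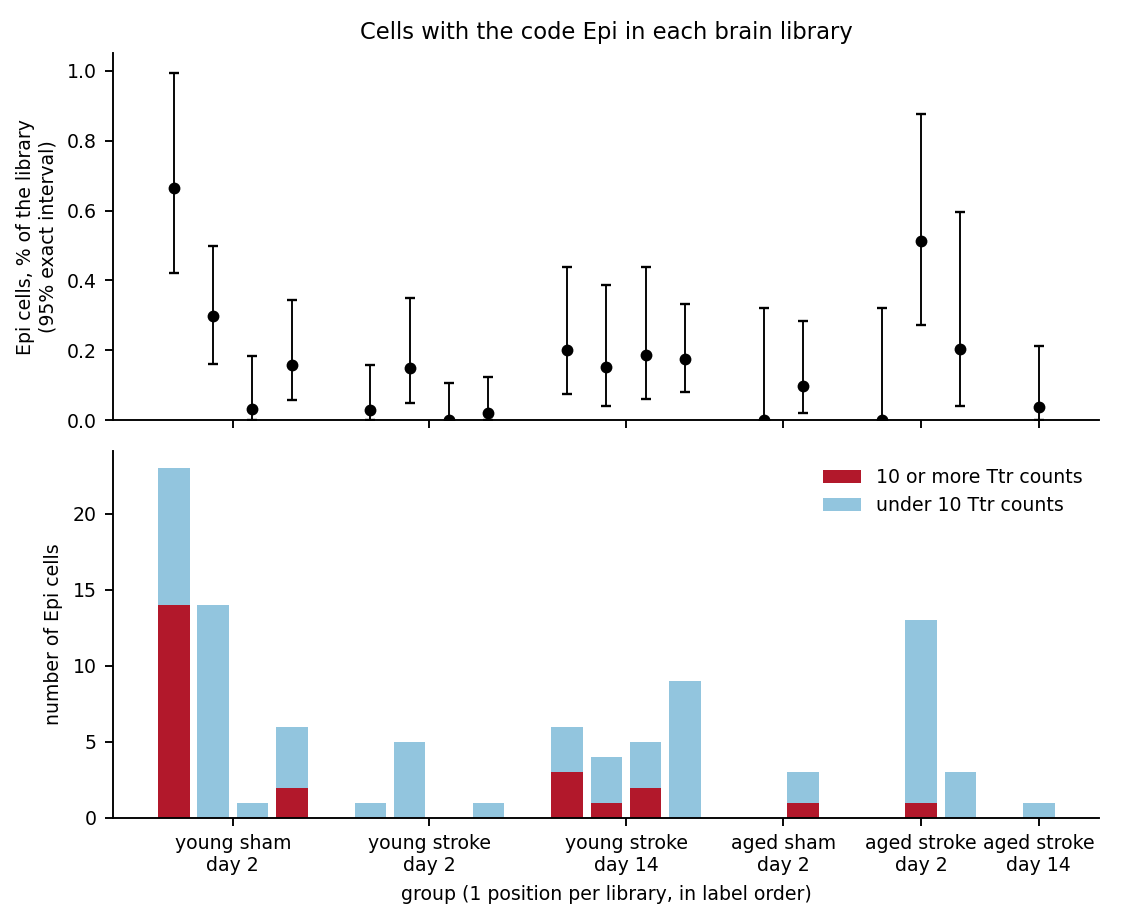
Share of cells with the code Epi in each brain library with its 95% exact binomial interval (upper panel, percent of all cells) and the number of Epi cells with 10 or more or fewer Ttr counts (lower panel), 1 position per library. Young sham replicate 1 has the highest share, 0.664%, and 14 of the 24 cells with 10 or more Ttr counts.

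Young mice had a lower share of Epi cells 2 days after stroke than after sham surgery (0.0501% ± 0.0676 against 0.288% ± 0.273, SD, n = 4 each). The log2 fold change was -2.50 ± 0.84 (SE), with an adjusted p of 0.0186 from edgeR's quasi-likelihood test over 12 cell classes, of which 41.7% were called in this comparison. The exact two-sided permutation test of the share gave p = 0.0571, and 0.137 after adjustment over the 12 classes. The call did not hold without young sham replicate 1 (-1.73, adjusted p = 0.130), without day 2 stroke replicate 3 (-2.12, adjusted p = 0.0535) or without day 2 stroke replicate 4 (-2.24, adjusted p = 0.0808), all by edgeR. It was kept without day 2 stroke replicate 2 (-3.82). With only cells of at least 500 counts it was also kept (-5.41), but no Epi cell of young day 2 stroke reached 500 counts (highest 446, rounded). That value is thus an estimate against a group left without Epi cells. The share also depends on the other classes. By edgeR (log2), monocyte-derived cells (MdC, 4.52) and dendritic cells (DC, 2.23) rose past the threshold, and microglia (Mg, -2.06) and B cells (Bc, -1.76) fell past it. Among EC, MC, OD and Epi cells alone, Epi made up 2.02% ± 1.44 in sham and 0.353% ± 0.481 after stroke (SD, n = 4 each). In these sorted suspensions, fewer cells in the tissue and fewer recovered by the sort cannot be told apart.

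Day 14 and sham did not differ past the threshold (log2 fold change -0.68 ± 0.73, SE; edgeR adjusted p = 0.480, exact permutation p = 0.657, n = 4 each; 33.3% of classes called). Without sham replicate 1 the estimate was 0.08. Day 14 lay above day 2 in all 4 against 4 libraries, with no overlap, by 1.82 ± 0.87 on the log2 scale (SE). Its edgeR adjusted p was 0.139, with 16.7% of classes called, and the exact permutation p of 0.0286, the smallest that 4 against 4 libraries can give, became 0.171 after adjustment over the 12 classes. Without day 2 stroke replicate 2 the difference was 3.14 (edgeR adjusted p = 0.0309). The comparisons with sham share the same 4 sham libraries.

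In aged mice the share 2 days after stroke was 0.239% ± 0.258 (SD, n = 3) against 0.0489% ± 0.0691 in sham (SD, n = 2). The log2 fold change of 1.97 ± 1.37 (SE) had an edgeR adjusted p of 0.374, with 16.7% of classes called. The exact permutation p was 0.5, and 3 against 2 libraries cannot give less than 0.2. Aged sham against young sham gave -2.09 ± 1.29 (SE), with an edgeR adjusted p of 0.354, 0% of classes called, and an exact permutation p of 0.333 where 0.133 is the smallest possible. The difference between the stroke effects in aged and young mice, tested as an interaction, was 4.45 ± 1.66 (log2, SE; edgeR p = 0.0119, adjusted p = 0.143 over 12 classes; exact permutation p = 0.0914 over 525 relabelings), so it did not pass the threshold. The aged groups mix both sexes, and the young group is male.

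Ttr, the marker of the class, divided its cells sharply. It had no count in 68 of the 95 cells, 1 or 2 counts in 3, and 30 or more in 24; no cell had 3 to 29 counts. A limit of 10 counts, set after these values were seen, therefore has no cell near it. The 24 cells above it had a median of 1470 counts in the authors' totals, of which Ttr was a median of 31.3% (2.28% to 53.0%), and the other 71 had a median of 310 counts. Ttr is itself on the choroid plexus list. Of the other genes of that list, the 24 cells had a median of 8.5, with at least 2 in 21 cells and 1 in the remaining 3; among the other 71 cells, 3 had at least 2. So 21 of the 24 cells carried at least 3 markers of the choroid plexus, Ttr included. In 3 of the 24 cells at least 2 genes of the ependymal list were counted.

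The cells with 10 or more Ttr counts came from 7 libraries. Young sham replicate 1 held 14 and replicate 4 held 2, while replicates 2 and 3 held none. Young stroke at day 14 held 3, 1 and 2 in replicates 1 to 3 and none in replicate 4, and aged sham female and 1 aged stroke female at day 2 held 1 each. All 4 young stroke libraries at day 2 held none. Without young sham replicate 1, 10 such cells remained. The 14 cells of that library had a median of 2039 rounded counts, 13 choroid plexus genes and 37.0% Ttr, and the 10 of the other libraries had 463 rounded counts, 5 genes and 20.2% Ttr.

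**Figure D2:**
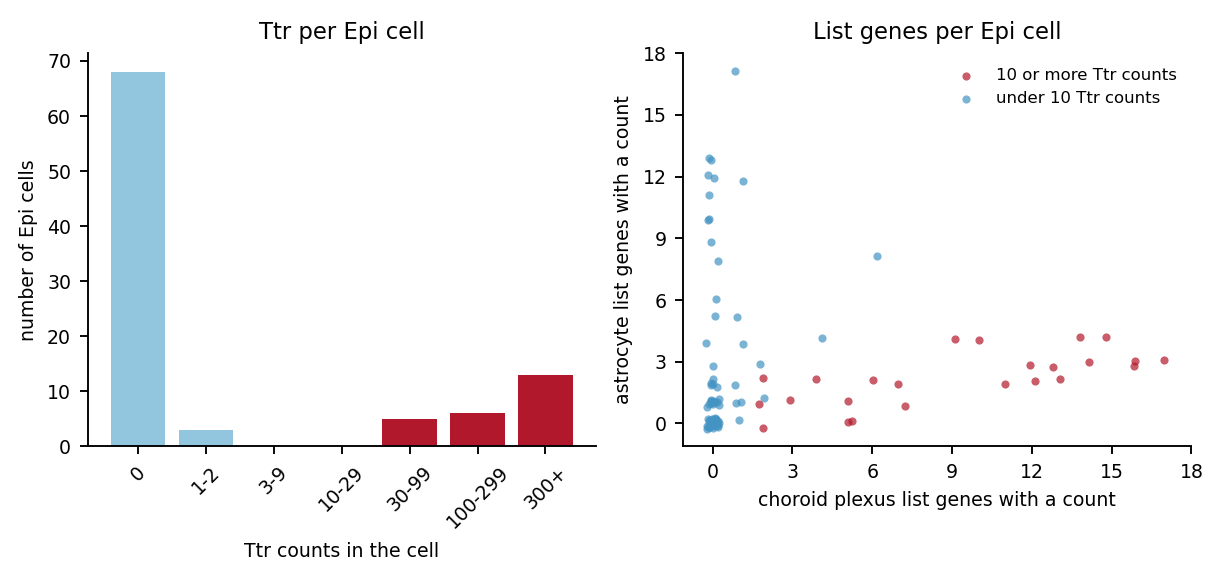
Left, number of Epi cells by their Ttr counts; right, number of choroid plexus and astrocyte list genes with a count in each Epi cell (points shifted at random by up to a fraction of a gene for visibility). Ttr is at 0 in 68 cells and at 30 or more in 24, and the cells with most astrocyte genes have few choroid plexus genes.

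Pooled over libraries, Ttr was at 154439 CPM (counts scaled to a common total per class) in Epi cells (95% Poisson interval 151599 to 157319, counting error only). It was at 44.0 CPM in EC, 93.5 in MC, 49.6 in OD and 20.4 in microglia (Mg). Without young sham replicate 1, these levels were 46.4, 26.3, 20.6 and 7.07 CPM. Epi cells are 0.172% of brain cells and held 93.3% of all brain Ttr counts, 11258 against 813 elsewhere. Of the 11258, 9949 were in young sham replicate 1. In the 7 libraries with an Epi cell of 10 or more Ttr counts, the share held by Epi ranged from 59.6% to 98.3%. In the others with any Ttr count it was 0. By library, the Epi level was 274349 CPM in young sham replicate 1, 0 in replicates 2 and 3, and 51315 in replicate 4. It was 0 in all 3 day 2 stroke libraries of young mice that held Epi cells, and 58551, 9135, 97022 and 0 in the day 14 libraries. The aged female sham library had 213668 CPM, the aged stroke female libraries at day 2 had 18668 and 0, and the day 14 library had 0. Without young sham replicate 1, the pooled Ttr level was 35734 CPM.

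Cells outside the class with a Ttr count lay mostly in the same library, which held 382 of the 813 Ttr counts outside Epi; day 14 replicate 1 held another 283. In young sham replicate 1, 9.97% of the cells outside Epi had a Ttr count (343 cells of 412 in all libraries), mostly a single count, against at most 0.523% in any other library. In that library 12.1% of microglia, 21.9% of MC cells and 1.10% of EC cells had one. Over all libraries, Ttr was detected in 28.4% of Epi cells (median depth 401 rounded counts), 0.236% of EC (486), 3.95% of MC (414), 4.60% of OD (717) and 1.18% of Mg cells (572). With young sham replicate 1 left out, the shares were 18.1%, 0.169%, 1.02%, 2.35% and 0.00896%. After thinning every cell to 200 counts, which left out 5 Epi cells, 107 EC, 16 MC, 2 OD and 369 Mg cells, the shares were 27.8%, 0.106%, 0.472%, 0 of 85 cells (up to 3.53% by a count of 0) and 0.411%. Outside Epi, 5 cells had 10 or more Ttr counts, 4 of them EC and 1 Mg. The part that free RNA plays in low Ttr counts was not tested.

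**Figure D3:**
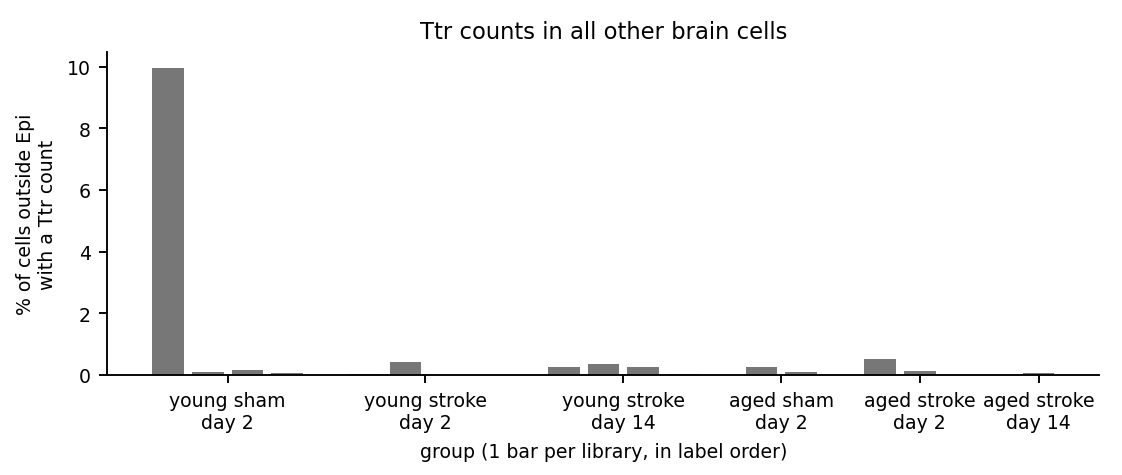
Percent of all brain cells outside Epi with at least 1 Ttr count, 1 bar per library. Young sham replicate 1 is at 9.97%, and all other libraries are at or below 0.523%.

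Epi differed from EC, MC and OD in a small set of genes with high ratios. Among 1336 genes with at least 100 CPM in Epi and counts in at least 5 libraries, 41 (3.07%) were at least 4-fold above the highest of the other 3 classes, where a class under 3 counts was set to 3 counts; the median ratio over the 1336 was 0.889. No test was made, since the authors' classes rest on the same counts. Without young sham replicate 1, 40 genes met the rule, 18 of them among the 41. Of the 41 genes, 6 were at least 4-fold higher in the cells with 10 or more Ttr counts than in the other Epi cells, 10 were at least 4-fold higher in the others, and 25 lay within 4-fold. Of all 1336 genes, 2.47% and 11.5% were 4-fold higher in the former and in the latter.

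The choroid plexus list, marker genes of that epithelium, summed to 174948 CPM in Epi against 119 in EC, 156 in MC and 1597 in OD, over the 18 genes held by both the young and the aged tables. Without Ttr, a sum chosen after seeing the data, the other 17 were at 20509 CPM in Epi (19482 to 21575), 75.3 in EC, 62.3 in MC and 1548 in OD. Of 24 genes, 18 had more than 3 counts in Epi and 17 of these, Ttr among them, were at least 4-fold above the other classes. Of all 3889 genes with more than 3 counts, 3.09% were. The median ratio, with the floor of 3 counts in place, was 11.3 against 0.916 over all such genes. Here and for the lists below, genes entered by their own counts in Epi, so these shares describe the class and are no test. Since Ttr divides the cells, the split inside the class was made without it. The other 17 genes summed to 40719 CPM (38655 to 42865) in the cells with 10 or more Ttr counts and 1024 CPM (725 to 1405) in the rest. Without young sham replicate 1 these sums were 19787 CPM (16532 to 23495) and 599 CPM (355 to 946). Without that library, the whole list with Ttr was at 39774 CPM over the class. Only 6 of its genes then had more than 3 counts, and 5 of these were at least 4-fold above the other classes, against 5.77% of all 2460 such genes.

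Secreted and carrier proteins of the choroid plexus led the list. Enpp2, the secreted enzyme autotaxin that makes lysophosphatidic acid, was at 13444 CPM in Epi (12615 to 14313) and had counts in all 24 cells with 10 or more Ttr counts and in 3 others. Young sham replicate 1 gave 892 of its 980 counts; without that library it was at 2402 CPM (1927 to 2960) and 1.61-fold above OD. Oligodendrocytes also make it, and OD cells had 1548 CPM, EC 61.7 and MC 62.3. Igfbp2, which binds insulin-like growth factors, was at 1070 CPM and at least 36.0-fold higher than in OD cells, which had no count (floor of 3 counts over the class). Of its 78 counts, 70 were in cells with 10 or more Ttr counts, and 68 in young sham replicate 1. Without that library it was at 273 CPM (131 to 502), at least 8.84-fold above OD. 1500015O10Rik, which encodes the secreted peptide augurin, had 137 counts in Epi, 4 in EC and none in MC and OD, so it was at least 63.1-fold higher than in OD. Of these counts 112 came from young sham replicate 1, and without it the gene was at 682 CPM (442 to 1007), at least 22.1-fold above OD.

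Receptors, channels and the regulator of the choroid plexus were counted mostly in the cells with 10 or more Ttr counts and mostly in young sham replicate 1. Folr1, the folate receptor that carries folate into cerebrospinal fluid, had 47 counts in 16 Epi cells, 46 of the counts in cells with 10 or more Ttr counts, and none in EC, MC and OD. Kl had 34 counts in 14 cells and Kcnj13 29 counts in 12 cells, all of them in cells with 10 or more Ttr counts. Prlr, the prolactin receptor, had 26 counts in 10 cells, all of the same kind. Otx2, the homeodomain factor of choroid plexus, had 18 counts in 10 cells, all in young sham replicate 1. Outside that library, Folr1 had 6 counts, Kcnj13 3, Kl 2 and Prlr 1, too few to place the last 3 above a floor of 3 counts. Genes with no count in Epi included Tmem72 and Cldn1 (both with up to 50.6 CPM allowed by the Poisson interval), and Aqp1, Cldn2, Slc4a5 and Wfdc2, which only the aged tables hold.

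The ependymal list was thinner. Of 24 genes, 11 were in both tables; 8 had more than 3 counts in Epi and 4 of these were at least 4-fold above EC, MC and OD (median ratio 4.15), against 3.09% of all 3889 such genes with a median of 0.916. With young sham replicate 1 left out, it was 3 of 6, against 5.77% of all genes. The summed level was 1495 CPM in Epi, 28.6 in EC, 491 in MC and 635 in OD, and it was 615 CPM in the cells with 10 or more Ttr counts and 2344 CPM in the others. These sums were 1829 CPM over the class, 457 (94.2 to 1334) and 2129 CPM (1640 to 2719) when that library was left out. Few cells carried the list. Over all its measured genes and all libraries, it was at 13247 CPM in 7 of the others. These were chosen by at least 2 ependymal genes and more ependymal than astrocyte genes. In 41 others, with fewer than 2 genes of each of the choroid plexus, ependymal and astrocyte lists, it had no count. Rarres2, which encodes chemerin, had 25 counts in 6 Epi cells, none of them with 10 or more Ttr counts, and also 40 counts in MC. Without young sham replicate 1 it was at 546 CPM (333 to 843), 1.83-fold above MC. Cfap126, a ciliary protein, had 17 counts in 11 cells. Of these cells, 7 had 10 or more Ttr counts and held 7 of the counts. Dynlrb2 had 14 counts in 8 cells, all in young sham replicate 1, and 6 of these cells with 7 of the counts had 10 or more Ttr counts. Foxj1, the regulator of motile cilia, is held only by the aged tables, where no Epi cell had a count among 20 aged cells.

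Of the other ciliary lists, the tektins and inner microtubule proteins had 5 genes above 3 counts, 3 of them at least 4-fold above the other classes, where 3.09% of all such genes were. Radial spokes and the central apparatus had 5, 1 of them 4-fold above, and axonemal dynein arms had 2, with 1. Intraflagellar transport and basal body genes, which cells with any cilium use, had 14 above 3 counts and 2 that were 4-fold above, with a median ratio of 1.65. Dynein arm assembly factors and the transcription factors of cilia had no gene above 3 counts. Low counts limited these calls. Krt18, a general epithelial gene with 7 counts in Epi, reached 3.23-fold over OD at the floor of 3 counts and was not called. The count needed changes when a library is left out, so calls with and without young sham replicate 1 are not like for like. With young sham replicate 1 left out, the counts were 3 of 4 for the tektins and inner microtubule proteins, 2 of 3 for the radial spokes and central apparatus and 2 of 10 for intraflagellar transport and basal bodies, against 5.77% of all genes, and no dynein arm gene had more than 3 counts. Odf3b, a protein of the axoneme, was at 178 CPM in Epi, with 12 of its 13 counts outside the cells with 10 or more Ttr counts, and at 328 CPM (169 to 572) without young sham replicate 1.

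Among the choroid plexus, ependymal and astrocyte lists, the astrocyte list had the second highest sum in the class. Of 24 genes, 17 had more than 3 counts and 11 of these were at least 4-fold above EC, MC and OD (median ratio 6.45), again against 3.09% of all such genes. With young sham replicate 1 left out, it was 7 of 13, against 5.77%. The list summed to 10687 CPM in Epi, 432 in EC, 2461 in MC and 556 in OD. Inside the class it was 5701 CPM in the cells with 10 or more Ttr counts and 15493 CPM in the others. In the former, 7 of the 24 genes were detected, and Clu (122 counts) and Mt3 (51 counts) made up most of the sum. When that library was left out, the list was at 7944 CPM (7057 to 8911) over the class, at 2892 CPM (1741 to 4516) in the cells with 10 or more Ttr counts and at 9048 CPM (8005 to 10190) in the others. Over all measured genes, aged stroke at day 2 held 164 counts of the list and young day 14 held 91. Slc1a3 was at 700 CPM with 51 counts in 12 cells, none of them with 10 or more Ttr counts. By library, Slc1a3 had 31 counts in young sham replicate 1, 16 in an aged stroke female library, 2 in 1 day 14 library and 1 each in 2 further libraries. Microglia had 117 CPM of Slc1a3, against 1.56 in EC.

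Aldoc, the aldolase of astrocytes, had 66 counts in Epi, 65 of them outside the cells with 10 or more Ttr counts, and none in MC and OD, which makes it at least 30.4-fold higher than in OD. Young sham replicate 1 held 46 of the counts, and without it Aldoc was at 546 CPM (333 to 843), at least 17.7-fold above OD. Slc1a2 had 39 counts in 10 cells and none in MC and OD. Gja1 was at 658 CPM in Epi and 68.7 CPM in EC, with all 48 counts outside the cells with 10 or more Ttr counts. Mt3, a metallothionein of brain, and Clu, the secreted chaperone clusterin, were in both kinds of cell: Mt3 at 1425 and 1967 CPM, and Clu at 3410 and 2129 CPM, with the higher Ttr cells given first. Of 201 Clu counts, 151 were in young sham replicate 1; without it Clu was at 1365 CPM (1013 to 1799) in the class, and Mt3 at 1174 CPM (850 to 1581). Gfap, the filament of reactive astrocytes, had 1 count in Epi.

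**Figure D4:**
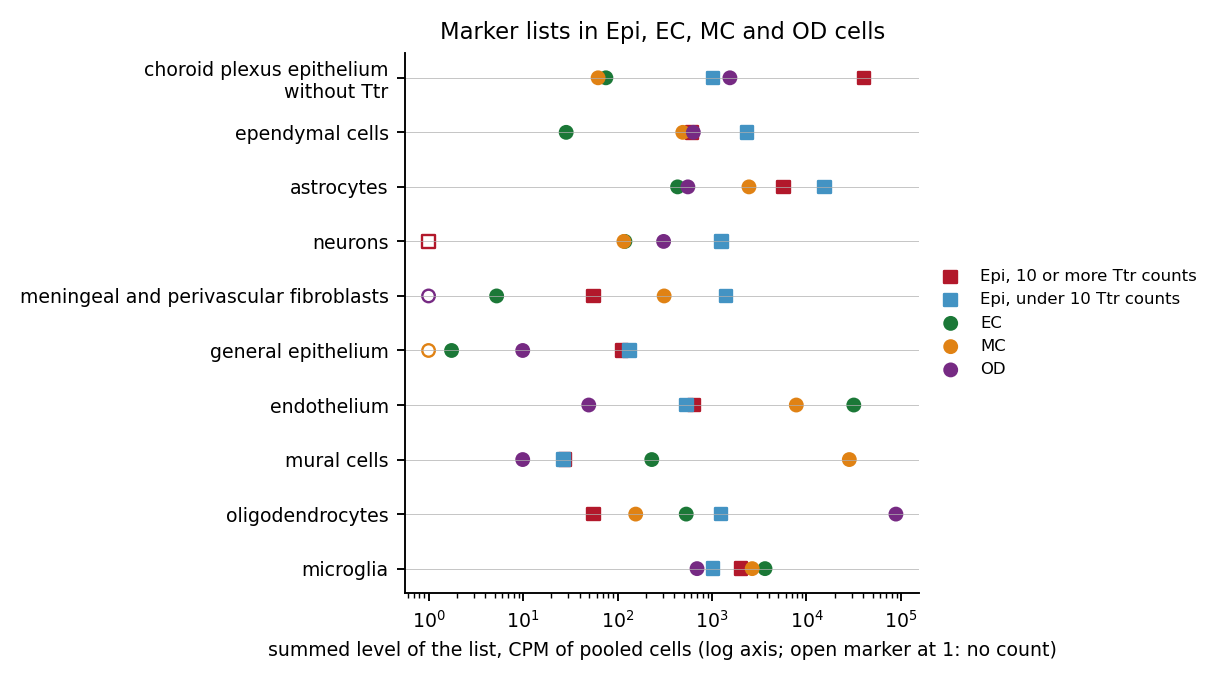
Summed CPM of 10 marker lists (log axis; the choroid plexus list without Ttr, which divides the Epi cells) in Epi cells with 10 or more Ttr counts, in the other Epi cells, and in EC, MC and OD cells, all libraries pooled. The choroid plexus list without Ttr is at 40719 CPM in the first and 1024 CPM in the second, and the astrocyte list at 5701 and 15493 CPM. Without young sham replicate 1 (not drawn) the latter pair is 2892 and 9048 CPM. Of the astrocyte list, Clu is at 3410 CPM and Mt3 at 1425 CPM in the cells with 10 or more Ttr counts.

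Among the 71 cells with fewer than 10 Ttr counts, at least 2 astrocyte genes were counted in 26 and at least 2 ependymal genes in 9, and 6 of these 9 were among the 26. Of the 9, 3 also had at least 2 choroid plexus genes. At least 8 astrocyte genes were counted in 12, and at least 5 ependymal genes in 4. Background was lower in other classes: 1.78% of EC, 11.0% of MC, 2.30% of OD and 0.186% of Mg cells had at least 2 astrocyte genes, against 45.3% of all Epi cells. The latter is made up of 17 of the 24 cells with 10 or more Ttr counts and 26 of the other 71. In those 24 cells, 7 of the 24 astrocyte genes were detected. Clu had counts in 19 of the cells and Mt3 in 17, and Slc1a3 and Gja1 had none. When young sham replicate 1 was left out, the share with at least 2 astrocyte genes was 29.2% of Epi cells, made up of 3 of 10 and 18 of 62. For the choroid plexus list the shares were 0.0656% of EC, 0.877% of MC, 4.60% of OD and 29.5% of Epi cells, and without that library 0.0706%, 0.510%, 2.35% and 18.1%. The cells differ in depth, and these shares were not thinned.

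None of the choroid plexus, ependymal and astrocyte lists reached 2 genes in 41 of the 95 cells. These 41 cells had a median of 325 counts, and at least 1 gene of the neuronal list was counted in 16 and at least 2 in 6. At least 1 neuronal gene was also counted in 5.22% of EC, 5.70% of MC, 9.20% of OD and 0.255% of Mg cells. Of the 10 neuronal genes, 3 had more than 3 counts in Epi. Of these, 1 was at least 4-fold above EC, MC and OD (median ratio 2.14), against 3.09% of all 3889 such genes with a median of 0.916. Without young sham replicate 1 it was 2 of 3 (median ratio 4.95), against 5.77% of all 2460 such genes with a median of 1.18. The gene called with all libraries was Meg3, a noncoding RNA, with 18 counts in 6 of the 41 cells. Stmn2, a tubulin-binding protein of growing axons, had 18 counts in 10 of them but also 594 in EC (116 CPM, against 247 in Epi). None of its Epi counts came from young sham replicate 1, and without that library it was at 491 CPM in Epi. Tubb3, a neuronal tubulin, was at 96.0 CPM in Epi (191 without young sham replicate 1) and 308 in OD, and Rbfox3, a splicing factor of mature neurons, had no count in Epi. Outside the neuronal list, and named after its values were seen, Nnat, an imprinted gene of neural cells, had 24 counts in 13 of the 41 cells (1513 CPM). Its level was higher in 7 Epi cells with at least 2 ependymal genes and more ependymal than astrocyte genes (2710 CPM, 18 counts in 5 cells). Dlx1, a homeodomain factor of inhibitory neurons, had 13 counts in 6 of the 41. It is on the list of neural progenitors and neuroblasts, at 1450 CPM in the 41 cells. Of 9 measured genes of that list, 5 were detected in Epi, 2 had more than 3 counts and 1 was at least 4-fold above the other classes, against 3.09% of all such genes. Without young sham replicate 1 it was 2 of 2, against 5.77%. At least 2 fibroblast genes were counted in 3 of the 41 cells. The marker lists thus give no basis for the code Epi in these cells, which are left unnamed here. They lay in 12 libraries, among them 10 of the 14 Epi cells of young sham replicate 2 and 8 of the 9 of day 14 replicate 4.

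**Figure D5:**
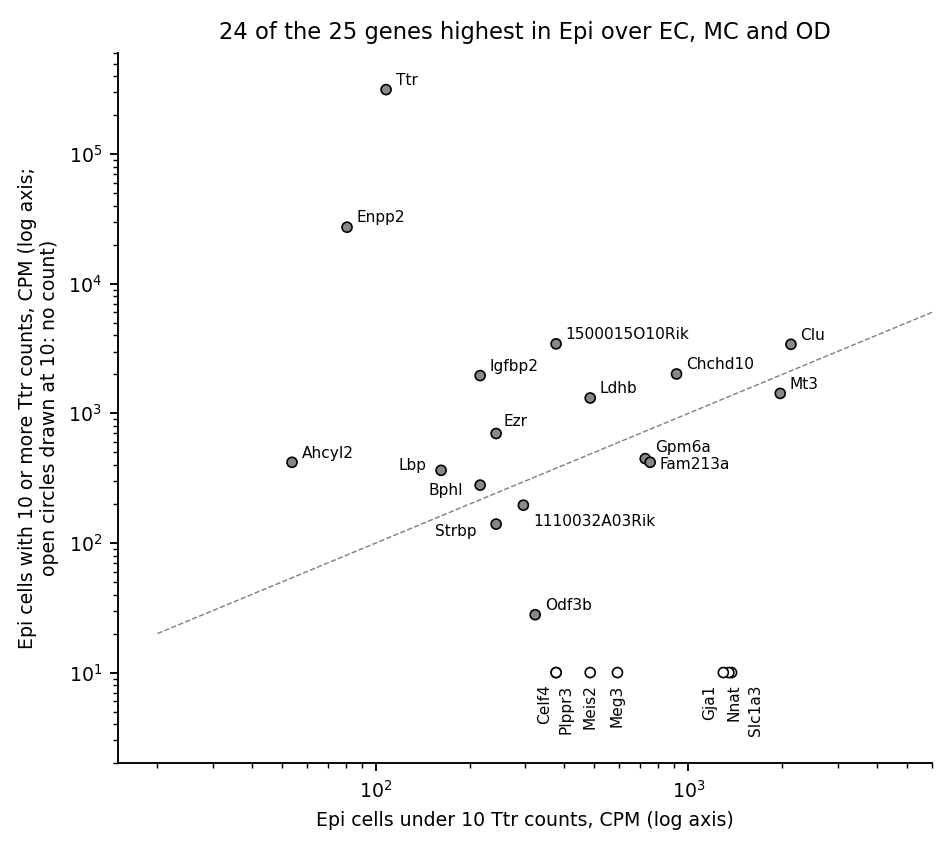
Level of 24 of the 25 genes with the highest ratio of Epi to EC, MC and OD in Epi cells with fewer than 10 Ttr counts (x axis, CPM, log) and with 10 or more (y axis, CPM, log); the dashed line marks equal levels and open circles have no count in the latter. Ttr and Enpp2 stand far above the line, while Slc1a3, Nnat, Gja1, Meg3, Meis2, Celf4 and Plppr3 have no count in the cells with 10 or more Ttr counts.

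Nnat was at 686 CPM in Epi as a whole, with 50 counts in 24 cells of 9 libraries, and none of those cells had 10 or more Ttr counts. Young sham replicate 2 gave 20 of the counts and day 14 replicate 1 gave 10, and the level without young sham replicate 1 was 1174 CPM (850 to 1581). Meis2, Celf4 and Plppr3, expressed in neurons, likewise had all their counts (18, 14 and 14) outside the cells with 10 or more Ttr counts. Of these, 17, 13 and 13 lay in the 41 cells left unnamed above, in 12, 10 and 11 of them. Genes higher in the cells with 10 or more Ttr counts included Ezr, which links membrane and actin in microvilli (699 against 242 CPM), and Ahcyl2, a partner of ion transporters (419 against 53.9).

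General epithelial genes were almost absent. Of 12, 7 were measured; Epcam had no count in Epi, Cdh1 had 2 counts, and Krt18 had 7 that all lay in young sham replicate 1. No Epi cell had 2 or more genes of the list. Lists of the other classes were low: the endothelial list summed to 590 CPM in Epi against 31683 in EC, the mural list to 27.4 against 28405 in MC, and the oligodendrocyte list to 658 against 88473 in OD (1228 in Epi without young sham replicate 1). The microglial list summed to 1523 CPM against 36222 in Mg, and to 355 CPM in Epi without that library, and 16 Epi cells had at least 2 of its genes, 10 of them with 10 or more Ttr counts. In young sham, 99 counts of microglial genes fell in Epi cells, of which 1 was outside replicate 1.

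Expression inside the class was not tested between groups. A library needed at least 10 Epi cells, a limit set here, and 3 libraries held as many, with more than 1 of them in the young sham group only. Pooled values are therefore given with Poisson intervals that cover counting error only. The choroid plexus list, over all measured genes, was at 266976 CPM (262098 to 271921) in young sham, and at 14399 CPM (11622 to 17639) without replicate 1. It was at 504 CPM in young stroke at day 2, a single count among 1983, and at 50882 CPM (47743 to 54173) at day 14. Aged sham had 228374 CPM from 3 cells, 262 of its 264 counts of these genes lying in 1 cell, and aged stroke at day 2 had 16174 CPM (13442 to 19297) from 16 cells, with 122 of 123 counts in 1 cell. The order of young sham and day 14 thus depends on replicate 1.

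The astrocyte list had counts in Epi cells of every group, but includes Clu and Mt3, found in both kinds of cell. The list was at 11844 CPM (10834 to 12922) in young sham, 2787 CPM (1652 to 4404) without replicate 1, 8069 CPM (4612 to 13103) at day 2 after stroke and 4734 CPM (3812 to 5813) at day 14. At day 14, replicates 1 to 4 had 19, 5, 4 and 0 counts of Clu and 20, 10, 2 and 0 of Mt3, among 91 of the list. Aldoc and Slc1a2 had none there, while Gja1 had 9 in replicate 1 and 4 in replicate 3, and Slc1a3 had 2 in replicate 1. Most of the 91 lay in 1 cell of replicate 1, which had 3497 counts, 1.57% of them of the list. That cell also had 9 ependymal genes. In young sham replicates 2 to 4, Clu had 3, 0 and 0 counts and Mt3 6, 0 and 1, among 18. Aged stroke at day 2 had 21565 CPM (18391 to 25130), where 6 of the 13 cells of 1 female library, none with 10 or more Ttr counts, had at least 2 astrocyte genes and no more ependymal than astrocyte genes. Of the 7 Epi cells of young mice at day 2 after stroke, 3 had at least 2 astrocyte genes and 4 reached 2 genes of none of the 3 lists. In young sham, 9 of the 44 cells had fewer than 10 Ttr counts, at least 2 astrocyte genes and no more ependymal than astrocyte genes, 7 of them in replicate 1.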

How the data were processed

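Single-cell transcripts were measured by Drop-seq in 18 brain and 11 blood libraries, and the counts of the brain libraries were used; of the blood libraries only the deposited cell codes were read. The authors deposited estimated counts per gene and cell, of which 0.320% to 4.81% of the non-zero values per brain library are whole, and a metadata table with the count total, percent of mitochondrial counts and cell type code of each cell. The submitters' processing notes name Seurat and mm10; how the counts became fractional is not given in the sources used here. Here the estimated counts were rounded to the nearest whole number (102.68% to 108.29% of the deposited totals), summed per class and scaled to CPM over the libraries whose table holds the gene (19704 genes in young and 27514 in aged tables). Gene lists and members were chosen with earlier results of these data known. Named genes were list genes and the 25 with the highest ratio of Epi to the highest of EC, MC and OD (at least 100 CPM, 5 libraries), of which 1 is not reported here. Shares of cells were tested with edgeR 4.0.16 (quasi-likelihood, library cell total as size, no TMM, no trend, classes of at least 50 cells, Benjamini-Hochberg, threshold 0.05), with R 4.3.3, and by exact two-sided permutation, and were checked on simulated data. Every deposited cell was kept; Scrublet (scanpy 1.11.5) marked 30 of 55268 cells (0.0543%), none of them Epi, so doublets are not accounted for. Intervals are 95% exact binomial or Poisson. Alternatives were other totals, depths, tools, fits, rounding and libraries left out.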

Additional observations from a re-analysis of the deposited data

Results flagged for a closer look

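In the young groups of 4 libraries, 5 measures were checked for a library whose gap to the nearest other exceeds what Dixon's rule allows. Of the 13 sets checked, 7 gave such a library. The rule flags about 1 in 20 sets of normally distributed values. Several sets here hold values at or near 0, so that rate need not hold for them. Several of these measures share the same Ttr counts. Young sham replicate 1 was far above the others in Epi cells with 10 or more Ttr counts (14, against 0, 0 and 2), in the median counts of its Epi cells (1531), in the Ttr level of all other cells (152 CPM) and in the percent of other cells with a Ttr count (9.97%). Young stroke day 2 replicate 2 was highest of its group in the Ttr level of other cells (5.65 CPM) and in the percent of other cells with a Ttr count (0.420%). Young stroke day 14 replicate 1 was highest of its group in the Ttr level of other cells (51.9 CPM), where 2 cells outside Epi held 129 and 147 Ttr counts.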

How the results depend on the processing

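For the young day 2 comparison with sham, 10 of 13 alternatives kept the direction and the call. The farthest value, -5.41 with only cells of at least 500 counts, is against day 2 stroke libraries left without Epi cells. Libraries left out in turn gave -3.82 to -1.73, and the 3 that ended the call are given above. For day 14 against sham, libraries left out in turn gave -1.03 to 0.0829, the latter without sham replicate 1. For day 14 against day 2, they gave 1.44 to 3.14, the latter past the threshold. The farthest value was 4.52 (edgeR adjusted p = 0.0944) with only cells of at least 500 counts, again with no Epi cell left in young day 2 stroke. The aged comparison and the comparison of aged with young sham stayed short of the threshold under all alternatives, with 0.735 to 6.04 and -6.14 to -1.32; where 1 of 2 aged sham libraries was left out, the lone library was assumed to vary like the other groups. With the replicate number as a replicate block, the day 2 difference was -2.38 (adjusted p = 0.0453), day 14 against sham -0.27 and day 14 against day 2 2.11, with no call changed. Same-numbered libraries do not deviate together (5 of 12 pairs with a correlation over 0.1, from -0.66 to 0.44). The number of genes at least 4-fold above EC, MC and OD was 12 with cells of at least 500 counts, 28 in young libraries alone, and was not computed for aged libraries, of which 4 hold Epi cells. With Ttr left out of it, an alternative chosen after seeing the data, the choroid plexus list was at 20509 CPM. Leaving out marked doublets was not run, since Scrublet marked too few cells, and alternatives for tests inside the class were not run for want of libraries with at least 10 Epi cells. On data simulated for day 2 against sham with a true log2 change of -3, the class was called in 51.7% of 60 simulations with a median estimate of -2.60. The simulation gave all classes the same fixed spread and left the other classes unchanged, whereas 41.7% of the real classes were called. Its rate of calls therefore need not hold for these libraries. Depth limits single genes: a gene needs more than 3 counts among 72896 to be named above a floor. A 4-fold call needs more, since 7 counts against OD at the floor gave a ratio of 3.23.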
